A study of Mus musculus with 4 samples.

Results

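ATAC-seq lets a transposase cut DNA wherever it is not wrapped in nucleosomes, and most of the open places it finds are promoters and enhancers outside the coding sequence. Described here are 430 open regions of mouse CD4+ T cells whose centre lies inside the coding part of an exon, away from the transcript start sites of the GENCODE annotation. They were selected from 93503 regions on the assembled chromosomes, made by merging the peaks of 4 libraries that shared at least 1 base. Of these, 47710 were called in all 4 libraries, and the 430 regions are those among them whose centre falls in a coding interval of a protein-coding transcript (GENCODE mouse release M21 on GRCm38, the build also called mm10) and more than 2.5 kb from every annotated transcript start site. They are called exon-centred regions here. The peak calls thus chose them, so that being called in every library is part of their definition and not a result.

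The cells were naive CD4+ T cells (high in CD62L, low in CD44 and without CD25), sorted from spleens of male wild-type C57BL/6 mice aged 7 weeks. All were activated for 48 h on plates coated with 5 µg/ml of an antibody to CD3, with 1 µg/ml of an antibody to CD28, 5 ng/ml of human TGF-β1 and 10 ng/ml of mouse IL-2, a culture that induces regulatory T cells (iTreg). The iTreg+PBS group (2 libraries) received no IL-4, and the iTreg+IL-4 group (2 libraries) received mouse IL-4 at 15 ng/ml. The paper describes its tracks as representative of pooled samples that were biologically independent, while the labels name no separate animals, so the spread between libraries may be partly technical. The lists held between 56645 peaks (iTreg+PBS replicate 2) and 78670 peaks (iTreg+IL-4 replicate 1), and the number of reads behind them is unknown. A peak lay within 1 kb of a start site of 8 of 8 T cell marker genes in every library, against none in any library for Cd79a, Lyz2, Csf1r and Ncr1, which mark B cells, myeloid cells and NK cells. In the order iTreg+PBS 1 and 2, iTreg+IL-4 1 and 2, the counts were 2, 1, 2 and 1 of 2 CD8 markers, 0, 1, 1 and 2 of 4 B cell markers, 2, 1, 2 and 2 of 4 myeloid markers, 0, 0, 1 and 0 of 2 NK markers and 1, 1, 2 and 1 of 2 erythroid markers. The part of such cells in the results was not tested. In a bulk library, fewer cells with an open region and less opening per cell cannot be told apart.

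A coding exon is translated into protein, and nucleosomes are known to sit preferentially on exons. Some coding exons nevertheless carry a second function as enhancers of their own gene or a neighbour, as alternative promoters, or as sites bound by CTCF, a zinc finger protein that shapes chromatin loops. DNA that encodes amino acids and also holds transcription factor sites has to satisfy both codes.

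The central 200 bases of 8 exon-centred regions show what kind of DNA was open. The first 3 come from the regions with the highest ranks in every library, the next pair from the regions that rose most with IL-4 and the sixth from the one that fell most, among regions whose conditions did not overlap, and the last pair from genes of the chromatin and cytoskeleton lists described further on. Each is given 5′ to 3′ on the strand of its gene, with coding bases in capitals and intronic bases in lower case. Prdm2 (a histone methyltransferase of the PR domain family) covers chr4:143162027-143162226 on the reverse strand, coding exon 5 of 8. Zfp771, a zinc finger gene, covers chr7:127254170-127254369 on the forward strand, coding exon 2 of 2. Zfyve28, whose product is a FYVE domain protein, covers chr5:34196494-34196693 on the reverse strand, coding exon 12 of 13. Ranbp2, a very large protein of the nuclear pore, covers chr10:58480165-58480364 on the forward strand, coding exon 20 of 29. Brca2, which acts in DNA repair by homologous recombination, covers chr5:150539952-150540151 on the forward strand, coding exon 10 of 26. Nxnl1, a thioredoxin-like gene known from the retina, covers chr8:71562805-71563004 on the reverse strand, coding exon 2 of 2. Smarca2, an ATPase of the SWI/SNF remodelling complex, covers chr19:26683780-26683979 on the forward strand, coding exon 18 of 33. Myh9, the heavy chain of non-muscle myosin IIA, covers chr15:77775727-77775926 on the reverse strand, coding exon 20 of 40.
Prdm2: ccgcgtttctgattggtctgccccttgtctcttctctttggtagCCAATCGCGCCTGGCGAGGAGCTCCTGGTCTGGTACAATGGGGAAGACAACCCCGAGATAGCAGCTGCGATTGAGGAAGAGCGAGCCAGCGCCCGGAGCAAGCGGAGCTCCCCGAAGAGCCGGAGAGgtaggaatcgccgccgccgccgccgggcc
Zfp771: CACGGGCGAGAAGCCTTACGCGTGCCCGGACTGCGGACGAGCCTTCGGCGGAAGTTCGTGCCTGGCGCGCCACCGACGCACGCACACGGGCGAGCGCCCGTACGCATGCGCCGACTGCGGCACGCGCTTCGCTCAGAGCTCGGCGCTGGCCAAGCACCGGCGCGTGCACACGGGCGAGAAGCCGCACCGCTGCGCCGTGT
Zfyve28: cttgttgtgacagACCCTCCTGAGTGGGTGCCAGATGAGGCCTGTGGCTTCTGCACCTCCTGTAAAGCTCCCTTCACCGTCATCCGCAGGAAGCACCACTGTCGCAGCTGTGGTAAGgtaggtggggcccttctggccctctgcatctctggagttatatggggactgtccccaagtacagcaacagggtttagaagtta
Ranbp2: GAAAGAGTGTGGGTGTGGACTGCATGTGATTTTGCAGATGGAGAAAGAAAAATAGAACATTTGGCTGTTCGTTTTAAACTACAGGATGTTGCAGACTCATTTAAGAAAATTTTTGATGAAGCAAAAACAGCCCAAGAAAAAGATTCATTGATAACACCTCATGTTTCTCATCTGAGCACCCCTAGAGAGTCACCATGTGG
Brca2: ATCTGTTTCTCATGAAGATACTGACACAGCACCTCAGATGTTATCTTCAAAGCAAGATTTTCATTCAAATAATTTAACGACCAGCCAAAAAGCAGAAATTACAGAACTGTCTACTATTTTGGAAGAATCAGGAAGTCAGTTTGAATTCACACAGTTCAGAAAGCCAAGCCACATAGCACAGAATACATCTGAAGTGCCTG
Nxnl1: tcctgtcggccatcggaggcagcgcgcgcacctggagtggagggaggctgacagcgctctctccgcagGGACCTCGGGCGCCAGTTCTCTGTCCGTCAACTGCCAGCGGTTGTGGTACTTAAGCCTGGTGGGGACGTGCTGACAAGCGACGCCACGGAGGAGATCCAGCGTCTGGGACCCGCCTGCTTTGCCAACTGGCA
Smarca2: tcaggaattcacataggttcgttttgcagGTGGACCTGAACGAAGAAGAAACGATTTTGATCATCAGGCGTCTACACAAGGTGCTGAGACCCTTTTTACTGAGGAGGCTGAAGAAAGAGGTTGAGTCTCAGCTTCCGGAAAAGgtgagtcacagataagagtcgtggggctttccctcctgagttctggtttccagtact
Myh9: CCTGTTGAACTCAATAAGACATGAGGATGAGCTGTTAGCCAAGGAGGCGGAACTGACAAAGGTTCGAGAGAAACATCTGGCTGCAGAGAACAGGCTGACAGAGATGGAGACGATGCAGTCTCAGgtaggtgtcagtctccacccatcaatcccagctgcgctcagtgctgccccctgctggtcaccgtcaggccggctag
The windows of Zfp771, Ranbp2 and Brca2 were coding over all 200 bases, while those of Prdm2, Zfyve28, Smarca2, Nxnl1 and Myh9 held 127, 104, 114, 132 and 124 coding bases. Base composition differed widely, from 37.5% GC in Brca2 and 39.0% in Ranbp2 to 73.5% in Zfp771.

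Far from start sites, coding bases were open at least as often as intronic or intergenic ones. Of the 19501804 coding bases more than 2.5 kb from a start site, 1.39% lay inside regions called in all 4 libraries. The same share was 1.30% of bases in other exons (untranslated or noncoding), 1.06% of intronic bases and 0.5997% of intergenic bases. Once called anywhere, a coding-centred region was about as reproducible as the others: of 977 such regions in any library, 430 (44.0%) were called in all 4, against 43.4% of 32981 intronic, 44.7% of 27046 intergenic and 45.2% of 1894 other exonic regions. A further 144 coding-centred regions were called in 3 libraries, and iTreg+PBS replicate 2, the library with the shortest list, was the one without a peak for 112 of them. iTreg+IL-4 replicate 2 lacked 23, replicate 1 of iTreg+PBS lacked 5 and of iTreg+IL-4 lacked 4. Without iTreg+PBS replicate 2, the rule gave 534 regions in place of 430.

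Whether a coding exon was open went with its base composition. Counted by exon, 1392 of 112935 coding exons (1.23%) had their centre inside a region called in all 4 libraries. The share was 0.297% where the 200 bases around the exon centre held under 40% GC, 1.06% from 45 to 50% GC, 1.65% from 55 to 60%, 2.98% from 60 to 65%, and 11.6% at 65% or more (130 of 1125 exons). Exon length made a smaller difference, from 1.15% of exons under 100 bases to 2.02% of exons of 1000 bases or more.

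**Figure D1:**
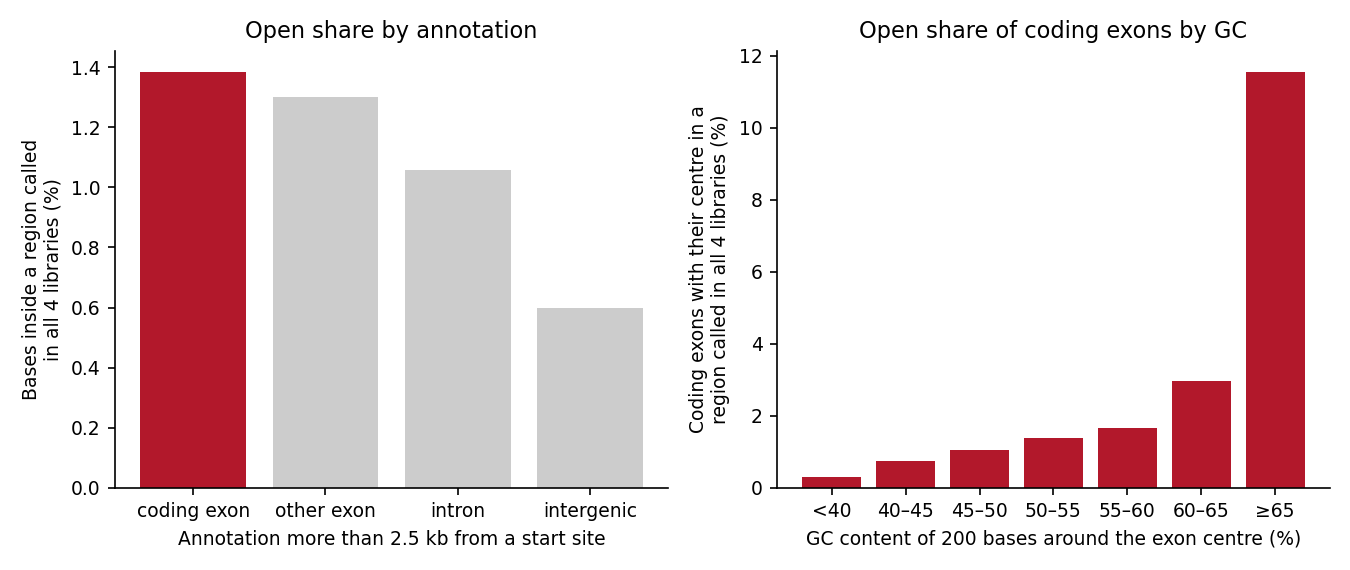
Left, percent of bases of each annotation class (x axis, all more than 2.5 kb from a start site) that lay inside regions called in all 4 libraries; right, percent of coding exons whose centre lay in such a region, by GC content in percent. Coding bases reach 1.39% against 0.5997% of intergenic bases, and the share of open exons climbs from 0.297% to 11.6% with GC.

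The 430 regions lay in 415 genes. Their working description as internal coding exons held for 272 of them (63.3%), while 133 (30.9%) were centred in the last coding exon, 15 (3.49%) in the first and 10 (2.33%) in the only coding exon of the transcript. Those in last coding exons were longer in coding sequence (median 464 bases against 171.5 in internal exons) and richer in GC (61.5% against 54.25%). Their median percentile, defined in the account of ranks, was higher in all 4 libraries, for example 46.3 against 36.5 in iTreg+PBS replicate 1 and 45.9 against 38.0 in iTreg+IL-4 replicate 2. The coding interval at the centre ran from 8 to 10374 bases (median 221.5), and 62 regions (14.4%) sat in an interval longer than 1000 bases.

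Most regions reached beyond coding sequence. Their width ran from 230 to 1965 bases with a median of 617.5, against 688 over all regions called in all 4 libraries. A median of 43.6% of their bases was coding, 181 (42.1%) were coding over at least 50% of their length, and 50 (11.6%) were coding throughout. When each library was asked alone, the midpoint of its own strongest peak was coding in all 4 libraries for 270 regions, in 3 libraries for 76, and in none for 4, namely Armh3, Dip2b, Dmtn and Sv2c. Their centres lay a median of 6638 bases from the nearest start site (range 2520 to 101285), and 7417.5 bases from the nearest other region called in all 4 libraries, against 6581 for intron-centred regions. The most lay on chromosomes 11 (38), 2 (37) and 7 (37).

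The distance limit cut through a continuous range of distances. Just inside it, the regions in Numa1, Cpm, Nat10, Kcns1 and Tmc3 lay 2520, 2530, 2530, 2537 and 2537 bases from a start site. Regions just outside included those in Hic1, Prrt3, Nkx2-3 and Cacna1a, which lay 2493, 2484, 2473 and 2451 bases away. Percentiles in the 4 libraries ran from 20.1 to 34.5 for Numa1 and from 38.7 to 56.7 for Hic1. A second annotation placed some start sites closer: 14 exon-centred regions lay within 1 kb of the start of a RefSeq transcript. The nearest was Prdm2, at 25 bases from the start of a model transcript. For only 2, the histone gene Hist1h2be (336 bases) and Inhbe (983 bases), was that transcript a curated record.

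Second copies of the sequence were uncommon. Another place in the genome matched 17 of the 430 regions (3.95%) at 90% identity or more over at least 50% of their length, against 2.59% of intron-centred and 6.56% of intergenic regions. These 17 include the neighbouring genes Srp54a, Srp54b and Srp54c, the interferon-induced genes Ifit3 and Ifit3b, and Cyp4f16 and Cyp4f17, named here after their values were seen. How the mapping split reads between such copies is unknown, so their ranks are uncertain.

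As heights are not scaled between libraries, every region was ranked within a library. Its percentile is the share of the 47710 regions called in all 4 libraries that had a lower −log10 q there, q being the value for the strongest peak of the region. The exon-centred regions ranked below the middle, with median percentiles of 38.9 in each iTreg+PBS library and of 40.9 and 39.5 in replicates 1 and 2 of iTreg+IL-4. Intron-centred regions had medians from 38.7 to 40.2 and intergenic regions from 40.1 to 41.2, values close to those of the exon-centred regions. Regions centred on coding sequence within 2.5 kb of a start site stood far above them, at 73.4 to 76.7. All 4 percentiles were over 50 for 121 exon-centred regions (28.1%, against 41.6% of all regions called in all 4 libraries) and under 50 for 232 (54.0%, against 40.4%). Only 4 (0.930%) had every percentile over 90, against 8.06% of all regions.

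Those 4 were the regions of Prdm2, Zfp771, Zfyve28 and Muc4. The Prdm2 region (chr4:143161657-143162597) had −log10 q of 532 and 262 in the iTreg+PBS libraries and of 397 and 427 in the iTreg+IL-4 libraries (replicate 1 first, here and for each pair of values that follows), which are percentiles of 95.5, 95.9, 93.5 and 96.0. It was high in every library, and the conditions overlapped. The last exon of Zfp771 (chr7:127253794-127254746) had percentiles of 94.4 and 96.1 without and of 92.4 and 95.6 with IL-4, and 85.0% of the region was coding. Zfyve28 (chr5:34196231-34196956) had 96.5 and 91.4 without and 96.9 and 93.3 with IL-4. A region within exon 2 of Muc4, a membrane mucin (chr16:32750374-32751374, all coding), had 94.98 and 90.7 without and 96.4 and 94.1 with IL-4. The Muc4 promoter had no peak shared by the 4 libraries, unlike those of the other 3 genes. Replicate number rather than condition separated the percentiles of Zfyve28 and Muc4, replicate 1 of each condition being the higher.

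The next 6 by their lowest percentile were Gipr (receptor of an incretin hormone), Spice1 (a centriole protein), Zfp51 (a zinc finger gene), Greb1l (related to an estrogen-regulated gene), Senp1 (a protease that removes SUMO) and Tmbim7. All their percentiles lay between 86.0 and 95.3. Spice1 was ranked 89.1 and 89.6 without and 91.0 and 90.7 with IL-4, and Zfp51 was ranked 88.7 and 88.0 without and 93.6 and 90.4 with IL-4, so that neither overlapped between conditions. Tmbim7 ran the other way, at 88.3 and 87.9 without and 86.0 and 86.0 with IL-4. At the other end, the weakest exon-centred region by its lowest percentile was in Dcbld2, at 0.150. Strong members were wider than weak ones, at a similar median GC. Over the 108 regions with the best lowest percentile the median width was 729.5 bases and the median GC 57.5%. Over the 107 with the poorest these were 532 bases and 56.5%. The median ratio of observed to expected CpG was 0.568 in the strong and 0.454 in the weak group. The median coding share was 35.9% against 51.3%, and the host promoter was open for 78.7% against 62.6%.

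**Figure D2:**
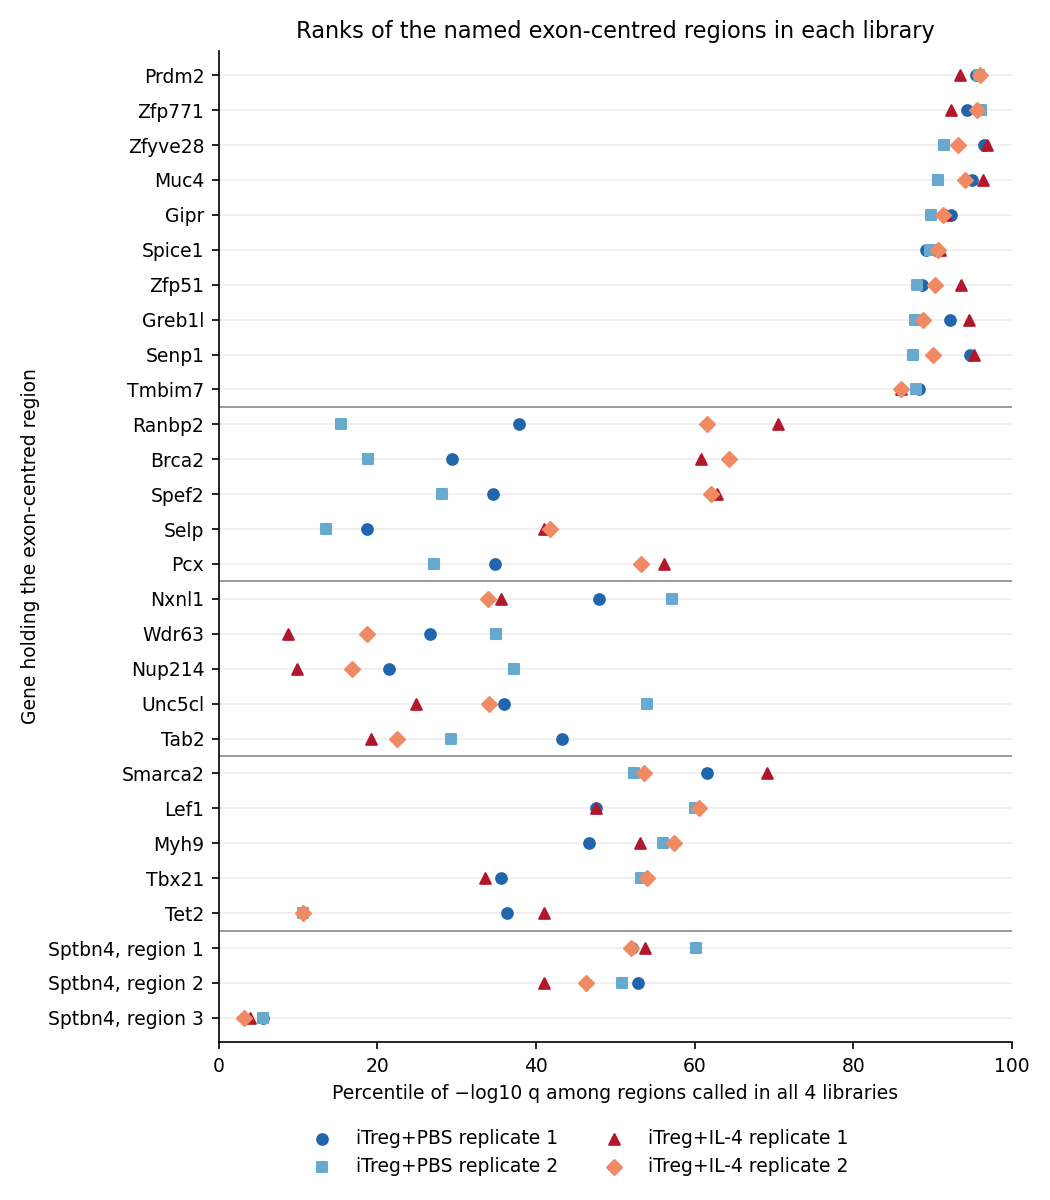
Percentile of −log10 q among regions called in all 4 libraries (x axis, 0 to 100) for each named exon-centred region (rows, by gene), with 1 symbol per library; lines separate the 10 highest, the 5 largest rises and 5 largest falls with IL-4 without overlap, the listed genes and Sptbn4. Ranbp2, Brca2 and Spef2 show the widest gaps between the conditions, while the listed genes overlap.

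The 4 libraries ordered the exon-centred regions alike. Over the 430 regions, which share each library's depth, Spearman's correlation of the percentiles was highest for replicate 1 of iTreg+PBS with replicate 1 of iTreg+IL-4 (0.939), with 0.892 for the replicate 2 libraries, 0.866 for the pair without IL-4 and 0.913 for the pair with it. The median region differed by 7.35 percentile points within the pair without IL-4 and by 5.31 within the pair with it, against 4.19 points between replicate 1 of each and 5.28 between replicate 2 of each. The median percentile over the regions was 38.9 ± 0.0585 (SD, n = 2) for iTreg+PBS and 40.2 ± 0.988 (SD, n = 2) for iTreg+IL-4. The difference of 1.29 points had p = 0.333 by an exact two-sided permutation test, the smallest p that 2 libraries against 2 allow, so the design cannot show a shift at this size of sample. The difference was 0.587 points without iTreg+IL-4 replicate 1, 1.98 without iTreg+IL-4 replicate 2, 2.94 for regions beyond 5 kb and 5.49 with ranks within full lists.

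With IL-4, 70 exon-centred regions (16.3%) ranked higher in both libraries than in both libraries without it, and 49 (11.4%) ranked lower. Over all 47710 regions these shares were 14.4% higher and 12.7% lower, and over intron-centred regions 16.1% and 12.0%, so the exon-centred regions were near the background in both directions. Of the 278 regions more than 5 kb from every start site, 53 (19.1%) ranked higher and 28 (10.1%) lower. Of all 430 exon-centred regions, 311 overlapped between conditions. With ranks taken within each library's full list instead, 97 regions were higher and 20 lower, where the background also moved, to 19.7% and 5.17%. Without iTreg+PBS replicate 2, 154 were higher (35.8%, beside 32.3% of all regions) and 114 lower (26.5%, beside 29.0%). Of the 70 regions that ranked higher, 10 moved by more than 20 points (2.33% of the exon-centred regions, beside 1.67% of intron-centred and 1.13% of all regions). Of the 49 that ranked lower, 0 did, beside 0.755% of intron-centred and 0.650% of all regions, the largest such fall being 17.8 points. A larger difference in mean percentile, 22.4 points lower with IL-4 in Ccdc28a (named after its values were seen), came with conditions that overlapped, at 24.6 and 70.5 without and 18.1 and 32.2 with IL-4.

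**Figure D3:**
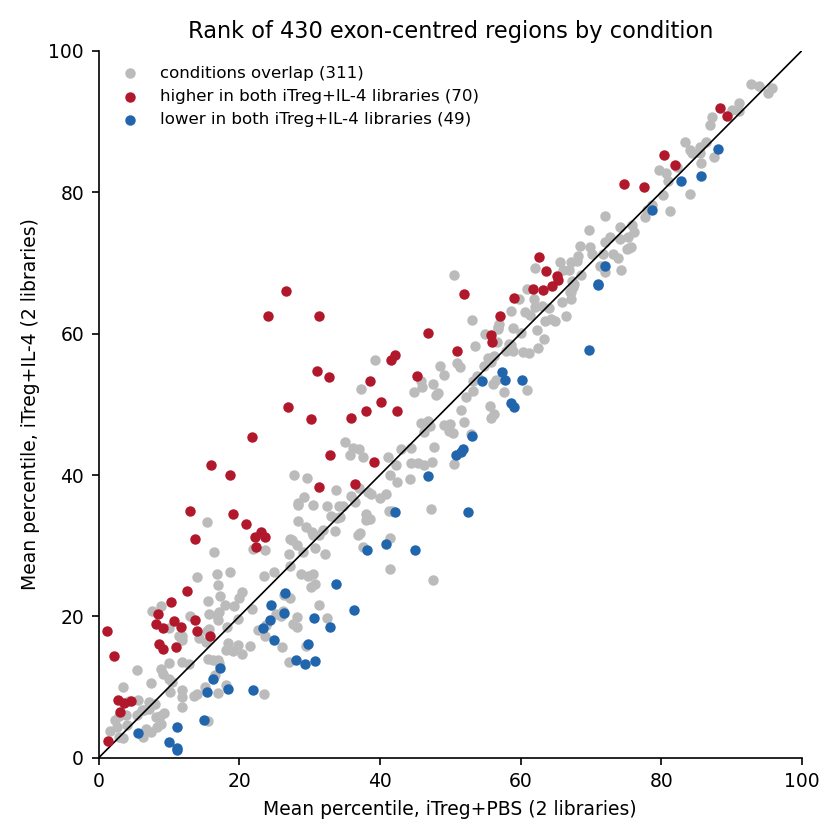
Mean percentile with IL-4 (y axis, 2 iTreg+IL-4 libraries) against mean percentile without it (x axis, 2 iTreg+PBS libraries) for the 430 exon-centred regions, coloured by whether the libraries of the conditions overlap. Most points follow the diagonal, 70 lie above it without overlap and 49 lie under it without overlap.

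The region with the largest rise lay in coding exon 20 of Ranbp2 (chr10:58479858-58480671), inside a coding interval of 4663 bases. Its −log10 q was 39.1 and 6.64 in the iTreg+PBS libraries and 119 and 59.1 in the iTreg+IL-4 libraries, and its percentiles were 37.9 and 15.4 without and 70.5 and 61.5 with IL-4, a mean rise of 39.3 points. Both iTreg+IL-4 libraries stood well above both iTreg+PBS libraries. Brca2 followed, in coding exon 10, an interval of 4809 bases (chr5:150539817-150540286). It was ranked 29.4 and 18.8 without and 60.8 and 64.3 with IL-4, 38.5 points higher. Both regions consisted of coding sequence throughout, and the promoters of both genes were open in all 4 libraries.

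Spef2, a gene of sperm flagella, was ranked 34.6 and 28.1 without and 62.9 and 62.0 with IL-4 (31.1 points). This region lay farther from any GENCODE start site than every other exon-centred one, at 101285 bases. Selp, which encodes the adhesion molecule P-selectin, was ranked 18.6 and 13.5 without and 41.0 and 41.7 with IL-4 (25.3 points). Pcx, pyruvate carboxylase, was ranked 34.9 and 27.2 without and 56.1 and 53.2 with IL-4 (23.7 points). These 5 regions were named because their conditions do not overlap, and in each of them the iTreg+PBS library with the shortest list, replicate 2, was the lowest. The part of that library in these differences was not tested.

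Falls without overlap were smaller. Nxnl1 was ranked 48.0 and 57.1 without and 35.6 and 33.9 with IL-4, a difference of -17.8 points. Wdr63, a subunit of axonemal dynein, was ranked 26.7 and 35.0 without and 8.67 and 18.6 with IL-4 (-17.2 points). Nup214, a nuclear pore protein, was ranked 21.4 and 37.3 without and 9.87 and 16.8 with IL-4 (-16.0 points). The other two were Unc5cl (-15.5 points) and Tab2, an adaptor of the kinase TAK1 (-15.4 points). In Unc5cl the nearest libraries of the conditions, at 36.0 without and at 34.0 with IL-4, were under 2 points apart. The midpoint of a library's own peak was coding in only 1 library for Unc5cl and in 2 for Tab2, and both regions extend past their coding sequence.

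Regions with little GC moved up more often than those with much GC. Among the 109 exon-centred regions with the least GC, 24 (22.0%) ranked higher with IL-4 and 9 (8.26%) lower. Among the 108 with the most GC, 14 (13.0%) ranked higher and 20 (18.5%) lower. The same contrast over all regions called in all 4 libraries was in the same direction, with 16.8% higher and 12.6% lower among the 12552 with the least GC and 11.3% and 14.1% among the 11730 with the most. As a description over 430 regions that share libraries, Spearman's correlation of GC with the change in percentile was -0.14, and -0.07 over all 47710 regions. The part of sequencing or amplification differences between libraries in this pattern was not tested.

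**Figure D4:**
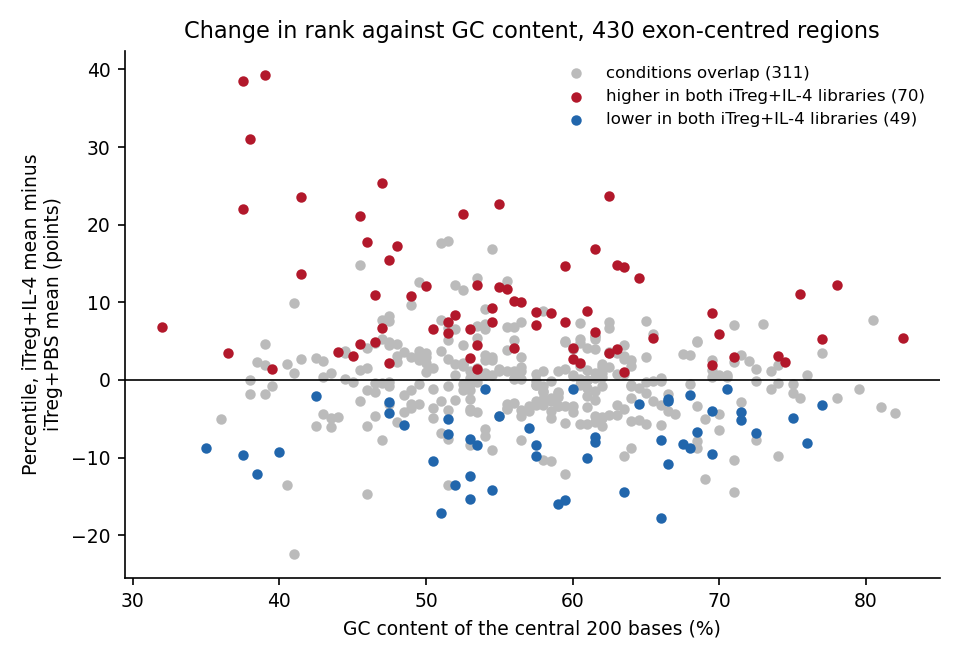
Change in percentile, mean of iTreg+IL-4 minus mean of iTreg+PBS (y axis, points), against GC content of the central 200 bases (x axis, percent) for the 430 exon-centred regions. The 3 largest rises, over 30 points, lie between 37.5 and 39.0% GC.

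The exon-centred regions were much richer in G and C than other distal regions. Median GC of the central 200 bases was 56.75% (middle 50% of regions from 50.5 to 63.4%), against 47.5% in intron-centred regions, 48.5% in intergenic regions and 48.0% in 109748 coding exons without a peak. It stayed under the 68.0% of coding-centred regions near start sites. The ratio of observed to expected CpG was 0.470 in exon-centred regions, against 0.208 in intron-centred regions, 0.240 in intergenic regions and 0.312 in coding exons without a peak, and it was 0.851 near start sites. Together, GC over 60% and a CpG ratio over 0.6, limits set here, were found in 113 exon-centred regions (26.3%). No such share is given here for the other groups. Repeat-masked bases occurred in 34.9% of the windows, against 61.5% of intron-centred windows. Over all regions called in all 4 libraries, which include those near start sites, GC and percentile went together (Spearman's correlation 0.32 to 0.36 in the 4 libraries). Among the exon-centred regions they did not track each other (-0.08 to 0.00). The same correlation was not computed for intron-centred or intergenic regions alone.

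Motifs were counted on both strands of the same 200 bases, as letters and not as bound sites. The core of the CTCF motif, CCANNAGGG, was in 38 exon-centred windows (8.84%), against 5.31% of intron-centred windows, 3.52% of coding exons without a peak and 5.29% of all regions called in all 4 libraries. In 26 of the 38, a match was wholly in coding sequence. Zfyve28 and Myh9, printed above, hold it as CCCTTCTGG (bases 128 to 136) and CCCTGCTGG (bases 173 to 181, both counted from 1 at the 5′ end), in each case within the intronic bases of the window. The ETS motif CCGGAAG was in 5.35%, against 1.57% of intron-centred windows and 2.11% of exons without a peak, but also in 4.42% of all regions called in all 4 libraries and 6.50% of coding-centred regions near start sites, and 21 of the 23 regions had it in coding sequence. Smarca2 is one of them, with CTTCCGG at bases 132 to 138. The other ETS form, CAGGAAG, was in 14.2%, against 15.1% of intron-centred windows and 8.99% of exons without a peak.

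Motifs of several factors active in T cells were less frequent than in intron-centred windows. AP-1 (TGANTCA) was in 7.91% of exon-centred windows against 15.1% of intron-centred ones and 4.74% of exons without a peak. RUNX (TGTGGTT) was in 5.35% against 11.2% and 3.49%, AGATAA, which GATA factors bind, in 5.35% against 9.33% and 9.18%, and TCF (CTTTGAA) in 2.79% against 5.93% and 4.80%. STAT (TTCNNNGAA) was in 8.60% against 10.2% and 6.64%, and SP/KLF (GGGGCGGGG) in 0.930% against 1.06% and 0.306%. YY1 (ATGGCGGC) was found in none of the 430 windows and in 0.217% of intron-centred ones. Motif frequencies depend on GC, which differs between these groups, and no matching on GC was made.

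**Figure D5:**
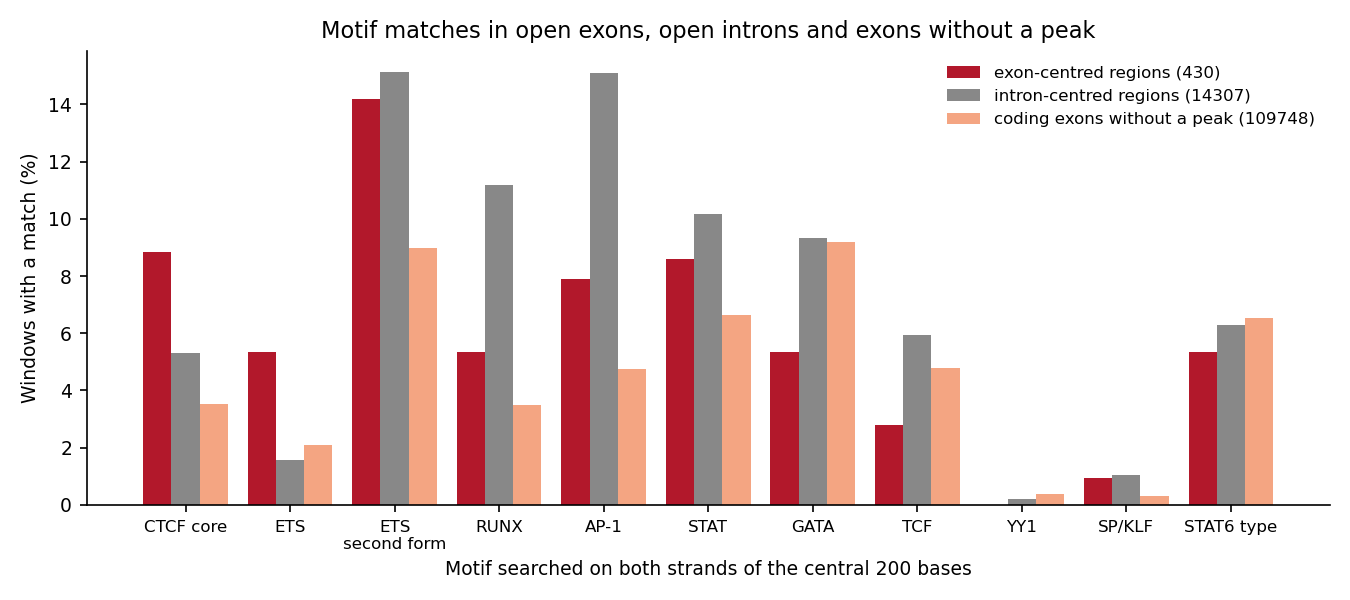
Percent of windows (y axis) with a match to each motif (x axis), both strands of the central 200 bases, in exon-centred regions, intron-centred regions and coding exons without a peak. CTCF and the first ETS form stand highest in exon-centred regions, and AP-1 and RUNX stand highest in introns.

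IL-4 signals through STAT6, whose palindrome TTCNNNNGAA has 1 base more between its arms than the STAT motif above. This motif was added to the search after the motif list had been set. It was in 23 exon-centred windows (5.35%), beside 5.27% of all regions called in all 4 libraries, 6.29% of intron-centred windows and 6.53% of coding exons without a peak. Of these 23, 7 ranked higher with IL-4 (30.4%), 3 ranked lower (13.0%) and the rest overlapped. Over all regions called in all 4 libraries, 2514 held the motif, of which 666 ranked higher and 217 lower. The motif was in 10.0% of the 70 exon-centred windows that ranked higher and in 6.12% of the 49 that ranked lower, beside 9.71% and 3.58% over all regions that did so. Brca2 is among the 7 and holds TTCTCATGAA at bases 7 to 16 of the window printed above, while Zfp771 and Myh9, whose conditions overlapped, hold TTCGGCGGAA and TTCGAGAGAA. Tab2, among the 3 that ranked lower (-15.4 points), holds the motif too. The TCF motif differed more between the directions, at 8 of the 70 windows that ranked higher (11.4%) and 0 of the 49 that ranked lower, beside 4.78% and 4.91% over all regions that did so, a contrast picked out after the values were seen and resting on few windows.

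The promoter of the host gene was often, but not always, open as well. Of the 415 host genes, 286 (68.9%) had a region called in all 4 libraries within 1 kb of a start site, against 79.9% of 5161 genes with an intron-centred region, 64.5% of the 15853 genes with coding bases far enough from a start site to qualify, and 58.7% of all 21938 protein-coding genes. An intron-centred region lay in 192 host genes (46.3%), against 31.5% of the genes that could qualify. The shift with IL-4 was similar whether the promoter was open (48 of 298 regions higher, 16.1%, and 11.7% lower) or not (22 of 132 higher, 16.7%, and 10.6% lower).

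The gene lists held such a region in 0 to 3.70% of their genes, beside 2.62% of all genes that could qualify. Of 34 genes of T cell receptor signalling, 31 had coding bases far enough from a start site and none had an exon-centred region, although 26 had an intron-centred one and all 34 had an open promoter. Of 54 regulators of Treg and T helper cells that could qualify, 2 had one (3.70%), Lef1 and Tbx21, and 41 had an intronic one. Of 56 chromatin regulators, 2 had one (3.57%), Smarca2 and Tet2, and of 28 cytoskeletal and adhesion genes, 1 had one (3.57%), Myh9.

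Lef1 encodes a TCF family factor of early T cells, and its region (chr3:131199618-131201141) was ranked 47.6 and 59.995 without and 47.6 and 60.5 with IL-4. Tbx21 encodes T-bet, the factor of Th1 cells, and its region in coding exon 2 (chr11:97101796-97102188) was ranked 35.6 and 53.3 without and 33.6 and 54.0 with IL-4. In both, libraries with the same replicate number had close ranks with and without IL-4, and the replicates of a condition lay over 10 points apart. The Lef1 region was only 7.09% coding, and its peak midpoint was coding in 1 library.

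Smarca2 (chr19:26683619-26684140) was ranked 61.5 and 52.3 without and 69.2 and 53.7 with IL-4. Tet2, an enzyme that oxidises methylcytosine, had a region in its last coding exon (chr3:133467229-133468208, 98.2% coding) ranked 36.3 and 10.6 without and 41.0 and 10.6 with IL-4. Myh9 (chr15:77775462-77776192) was ranked 46.7 and 56.1 without and 53.1 and 57.4 with IL-4. None of these 5 genes separated the conditions.

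Most host genes had 1 such region, 13 had 2, and Sptbn4, which encodes a beta spectrin of axon membranes, was the only one with 3. Its strongest region, in coding exon 16 of 35 (chr7:27402715-27403161), was ranked 52.1 and 60.2 without and 53.7 and 52.0 with IL-4. A region wholly within coding exon 13 (chr7:27408361-27409108) was ranked 52.8 and 50.8 without and 41.0 and 46.3 with IL-4, lower in both iTreg+IL-4 libraries. The third, at coding exon 26 (chr7:27367429-27368101), was weak, at 5.58 and 5.55 without and 3.93 and 3.22 with IL-4. It too was lower in both iTreg+IL-4 libraries. The GC content of these 3 windows was 59.0, 76.0 and 68.0%. Regions of 1 gene share a locus and are not replicates of each other.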

How the data were processed

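ATAC-seq was performed on 4 libraries, 2 iTreg+PBS and 2 iTreg+IL-4, grouped by the sample labels. The authors mapped reads to mm10 and called peaks in each library without pooling; the submitters' processing notes name Bowtie2 2.2.5, MACS2 2.1.2 and bedtools 2.16.2. Caller parameters, removal of duplicate and mitochondrial reads, and a correction for the transposase offset are not given in the sources used here, and such steps can move peak edges and ranks. The deposited lists hold for each peak a position, a significance value taken as −log10 of the q-value (the lowest value corresponds to a q of about 0.05) and a value taken as the height of the pileup signal; the authors' lists carry no column names, so both readings come from the values. Neither is scaled between libraries and no reads are held, so depth is unknown and no interval can be given.

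Peaks were merged, annotated with GENCODE mouse release M21 and RefSeq, and given percentile ranks in Python (3.11.15) with scipy 1.17.1, pandas 2.3.3 and numpy 2.4.6. Sequences came from the RefSeq copy of GRCm38, read with pysam 0.24.0, and second copies were searched with minimap2 2.31. Merging, annotation and ranking were tested on simulated data. The regions, gene lists and motifs were chosen with earlier results of these data known. Named were the 10 regions whose lowest percentile was highest, the 5 largest rises and 5 largest falls without overlap, regions in listed genes, and genes with 3 or more regions; other names were chosen after seeing values. Alternatives changed the strength, distance, coding share, overlap and ranking, left out each library, or treated the replicate number as a block; the midpoint of each library's own peak, RefSeq start sites and second copies were added after seeing the data. The median percentile was compared by an exact two-sided permutation test, and counts of regions have no p-value. Expression and other assays were not analysed here. A few genes are not reported here.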

Additional observations from a re-analysis of the deposited data

How the results depend on the processing

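The number of exon-centred regions fell from 430 to 192 with the upper 50% of each list, 278 beyond 5 kb, 181 with at least 50% of the region coding and 270 with the midpoint of every library's own peak coding, an alternative chosen after seeing the data. Leaving out 1 library gave 424 to 534. Regions ranked higher with IL-4, 70 with all settings as reported (16.3%, beside 14.4% of all regions), numbered 24 in the upper 50% of each list (12.5% beside 13.8%), 27 with at least 50% coding (14.9% beside 14.4%), 53 beyond 5 kb (19.1% beside 14.4%) and 139 to 154 without 1 library (32.3 to 35.8% beside 29.8 to 34.5%). Regions ranked lower, 49 as reported (11.4% beside 12.7%), numbered 20 in the upper 50% (10.4% beside 12.0%), 28 beyond 5 kb (10.1% beside 12.7%), 26 with at least 50% coding (14.4% beside 12.7%), 20 with ranks within full lists (4.65% beside 5.17%) and 110 to 151 without 1 library (25.6 to 35.1% beside 27.3 to 36.3%). The share thus passed to the other side of the background for higher ranks in the upper 50% and for lower ranks with at least 50% coding or with ranks by height (12.3% beside 12.0%). Fewer regions or fewer libraries are part of how most of these alternatives are built, and with ranks within full lists the cause was not tested. Without iTreg+PBS replicate 2, 35.8% were higher and 26.5% lower, beside 32.3% and 29.0% of all regions.

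With the replicate number as a block (replicate block), 125 were higher (29.1%) and 110 lower (25.6%) within both pairs, beside 27.8% and 28.2% of all regions, and the median difference of 1.29 points had an exact p of 0.5. Whether libraries with the same number were paired is unknown. Their deviations correlated at 0.438 over the exon-centred regions and 0.4999 over all regions, and 2 numbers cannot establish a pairing. The median difference was positive under every alternative run for it, from 0.587 (without iTreg+IL-4 replicate 1) to 5.49 points (full lists). Of 48 alternatives, 20 moved a value beyond its limit. Unknown depth limits which regions were called in all 4 libraries.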
